A study of Danio rerio with 6 samples.

Results

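The 3 wild type libraries of a study of zebrafish (Danio rerio) were used here to describe what the animal transcribes at 5 days post fertilization, out of 6 libraries in all. The other 3 libraries came from sas10 mutants of the same age, and no value of theirs was read. The labels name the source as embryo and the molecule as polyA RNA, and they give no strain, sex, number of pooled animals or separate cultures, so the spread between libraries may be technical. The libraries are called wt11, wt12 and wt13 after their headings in the count table. All 3 headings belong to the wild type group, and which numbered replicate each one is was not given. In bulk RNA, fewer cells of a type and less RNA per cell cannot be told apart.

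At this age a zebrafish has hatched, swims, sees, and turns from yolk to captured prey. Trunk muscle makes up a large part of the body, the exocrine pancreas has begun to fill with digestive enzymes, and the retina holds working cones and rods. Many genes exist as pairs of copies left by a genome duplication in the ancestor of teleost fishes, and the copies of a pair often differ in tissue or level.

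Gene counts summed to 18697868 in wt11, 18614667 in wt12 and 17599625 in wt13. Levels below are TPM, a share of transcripts, which divides each count by the merged exon length of the gene and scales each library to 1000000, so that genes can be compared with each other. A single count in a gene of 1000 bases was worth 0.0997 to 0.116 TPM. Of 32520 annotated genes, 27418 had at least 1 count in a wild type library and 24399 had a count in all 3. A mean of at least 1 TPM was reached by 20957 genes, or 64.4%, and a mean of at least 100 TPM by 1022.

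Transcription in the whole animal was concentrated in few genes. The 26 most abundant genes held 25% of all TPM, 178 held 50%, and 1529 held 75%. The 100 most abundant genes held 43.3% of TPM in wt11, 41.4% in wt12 and 39.9% in wt13. Of these leading genes, 88 were among the first 100 in every library, and 112 genes were in the first 100 of at least 1 library. In CPM, which scales counts to the same total without division by length, 439 genes were needed to hold 50%.

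The most abundant transcripts came from mitochondria, muscle and exocrine pancreas. mt-co1 (ENSDARG00000063905, GRCz11 chromosome MT, 6425 to 7975), the mitochondrial subunit 1 of cytochrome c oxidase, ranked first with 24978, 27397 and 30005 TPM in wt11, wt12 and wt13, a mean of 27460 ± 2514 (SD, n = 3). actc1b (ENSDARG00000099197, chromosome 17, 117024 to 125091), a sarcomeric actin of muscle, ranked second with 23298, 21841 and 19408 TPM and a mean of 21516 ± 1965. mt-co1 was lowest and actc1b highest in wt11. pvalb1, a calcium buffer that speeds relaxation of fast muscle, had 20923, 18817 and 16863 TPM, and its relative pvalb2 had 10946, 8662 and 10115 TPM. prss1, which encodes trypsin, had 13148, 12187 and 10392 TPM. Beyond these kinds of gene, the leaders were slc25a5, the carrier that exchanges ADP and ATP across the inner mitochondrial membrane, at 6076 ± 375 TPM, krt4, a keratin of the skin surface, at 5712 ± 267 TPM, and actb2, a cytoplasmic actin, at 4982 ± 384 TPM.

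**Figure D1:**
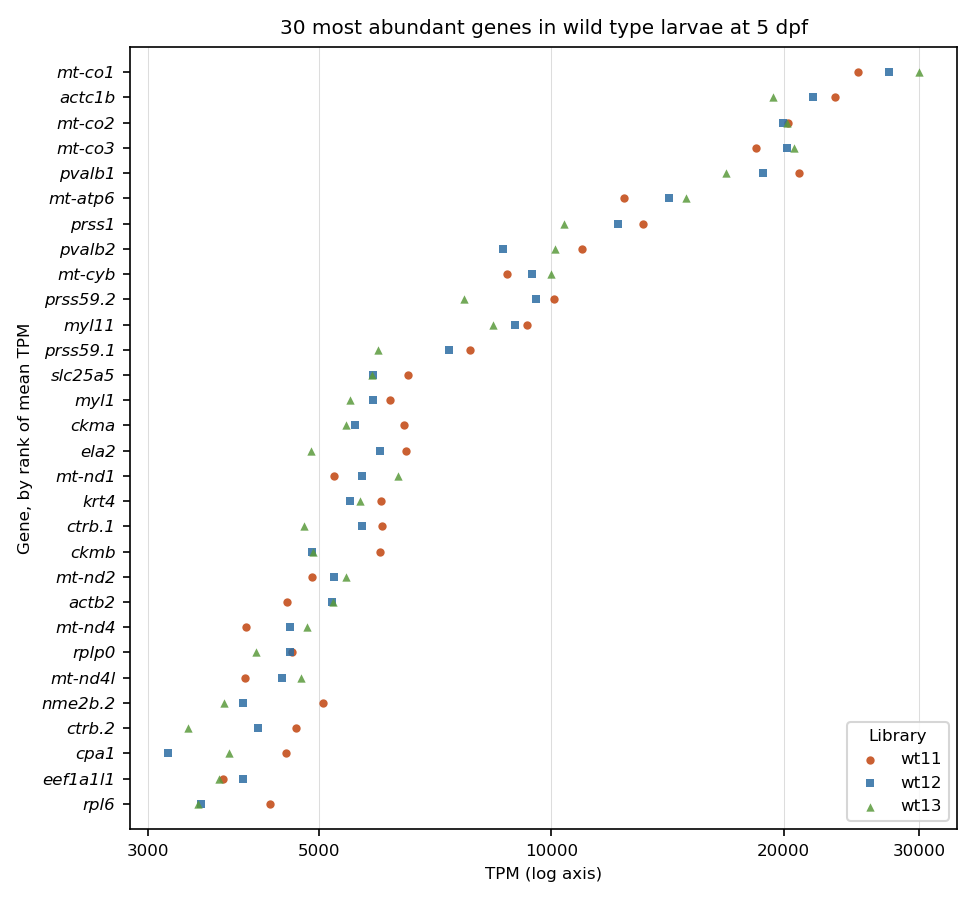
TPM (log axis) of the 30 genes with the highest mean, ordered by that mean, with 1 marker per wild type library. The muscle and pancreas genes in this set are mostly highest in wt11 and the mitochondrial genes mostly highest in wt13, as with actc1b at 23298 against 19408 TPM and mt-co1 at 24978 against 30005 TPM in those libraries.

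Genes of the mitochondrial chromosome held 12.2% ± 0.678 of TPM (SD, n = 3), with 11.5% in wt11, 12.2% in wt12 and 12.9% in wt13. As a share of counts they took 5.97% to 6.24%. Of the 13 named genes, 10 were lowest in wt11, which was the lowest library for 62.0% of all genes at 1 TPM or more. The 24 unnamed genes of this chromosome together held 0.557%, 0.416% and 0.407% in wt11, wt12 and wt13, so their sum was highest in wt11. Of the 22 unnamed genes at 1 TPM or more, 7 were highest and 8 lowest in wt11. mt-co2, another oxidase subunit, was nearly level at 20242, 19951 and 20185 TPM. mt-co3 had 19738 ± 1158 TPM and mt-atp6, a subunit of the ATP synthase, had 13864 ± 1299 TPM. mt-nd6, a subunit of complex I, is encoded on the opposite strand, and since the recorded counting command has no strand option its mean cannot be told apart from reads of the other strand. The 111 genes of the nuclear-encoded respiratory chain together held 1.74% ± 0.132, led by atp5f1b, the catalytic subunit of ATP synthase, at 1482 TPM.

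Muscle held the largest share among 24 marker lists, where a share depends on which genes a list holds. The fast skeletal muscle list, with all 51 of its genes at 1 TPM or more, held 11.9%, 10.9% and 10.4% of TPM in wt11, wt12 and wt13. Behind actc1b and the parvalbumins stood myl11 (ENSDARG00000053254), a regulatory myosin light chain, at 8893 ± 446 TPM, and myl1 (ENSDARG00000017441), an alkali light chain, at 5844 ± 346 TPM. The paired muscle creatine kinases ckma and ckmb, which buffer ATP, had 5807 ± 554 and 5266 ± 636 TPM. nme2b.2, a nucleoside diphosphate kinase, had 4269 ± 698 TPM. The slow muscle list, of 14 genes, held far less, 0.112%, 0.114% and 0.118%. The lists differ in size and content, so this gap is no ratio of fast to slow muscle. Leaders of the slow list were myl10 at 373 ± 16.5 TPM and the slow troponin C tnnc1 at 190 ± 2.16 TPM. The slow myosin heavy chain smyhc1 followed at 181 ± 35.2 TPM. smyhc1 was lowest in wt11 at 146 TPM and highest in wt13 at 216 TPM. The heart list, with 18 of 21 genes at 1 TPM or more, held 0.0230%, 0.0222% and 0.0256% of TPM. Its leaders were the myosin light chains cmlc1 at 43.4 ± 8.07 and myl4 at 41.2 ± 0.517 TPM and myl7 at 30.2, 29.5 and 31.9 TPM.

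Digestive organs came next. The exocrine pancreas list, which holds 27 genes for enzymes and factors of the acinar cells, took 7.42% of TPM in wt11, 6.85% in wt12 and 5.83% in wt13. Every member passed 1 TPM and the median member stood at 1469 TPM, the highest median among the lists. After prss1 came the trypsin-like proteases prss59.2 at 9119 ± 1247 and prss59.1 at 7055 ± 983 TPM, and the elastase ela2 at 5789 ± 823 TPM. The 4 leaders held 50.5% of the list. wt11 was highest for 19 of the 27 members, beside 16.8% of all genes, and wt13 lowest for 22, beside 14.1%, so most of the enzymes were high and low in the same libraries. The endocrine pancreas list held 0.0424% ± 0.00290, and insulin itself (ins) had 84.5, 77.9 and 64.7 TPM. Its share is not that of the islets alone, as scg3 at 90.1, neurod1 at 83.3 and isl1 (ENSDARG00000004023) at 43.2 TPM are also used in neurons.

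The liver list held 1.15% ± 0.0715 of TPM, with apoa2, an apolipoprotein of plasma, at 3755 ± 254 TPM. fabp10a, the liver fatty acid binding protein of fishes, had 2061, 1549 and 1398 TPM and was highest in wt11. rbp4, which carries retinol in plasma, had 1580 ± 202 TPM, and fetub, a plasma protease inhibitor, had 876 ± 99.8 TPM. hpxa and hp, which bind heme and hemoglobin, were the members below 1 TPM. The intestine list held 1.01% ± 0.0291. Its leaders were apoa1a at 2612 ± 53.1 TPM, the chitinase chia.2 at 1395 ± 40.6, the lipoprotein component apoa4b.1 at 1116 ± 65.1 and the fatty acid binding protein fabp2 at 1051 ± 89.8 TPM. apoa1a is also known from liver and the yolk syncytial layer, so its share is not that of the gut alone.

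**Figure D2:**
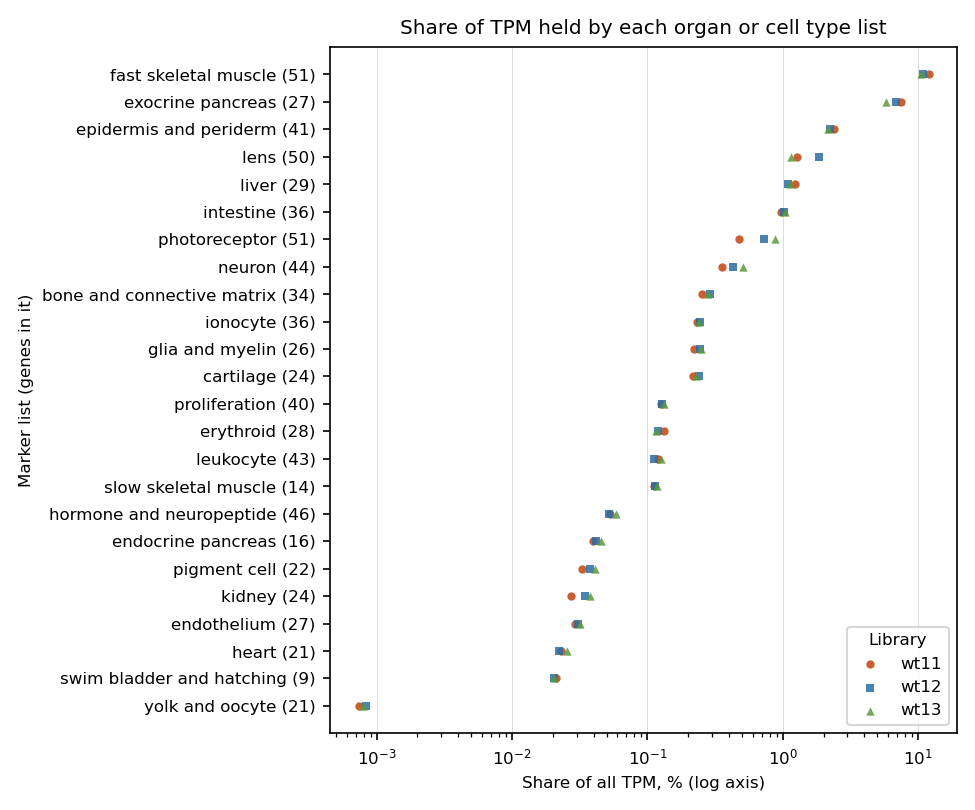
Share of all TPM, in percent on a log axis, held by each of 24 organ or cell type marker lists, with the number of genes in brackets and 1 marker per wild type library. Shares run from 10.4% to 11.9% for fast skeletal muscle down to 0.000790% for yolk and oocyte, and the libraries stand apart most clearly for photoreceptor, neuron and lens.

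Of the 24 lists, only fast skeletal muscle and exocrine pancreas held more TPM than epidermis and periderm, the list of the skin. The epidermis and periderm list held 2.26% ± 0.104 of TPM, and all 41 members passed 1 TPM. After krt4 came cyt1 at 2714 ± 419, krt91 at 2707 ± 146 and krt5 at 1983 ± 221 TPM, all of them keratins, the intermediate filament proteins of epithelia. krt5 was lowest in wt11 at 1730 TPM, whereas krt4, cyt1 and krt91 were highest there. The ionocyte list held 0.240% ± 0.00554 and was led by subunits of the sodium pump, atp1b1 (ENSDARG00000013144) at 352 ± 56.5 and atp1a1a.4 at 344 ± 18.4 TPM. The skeleton lists were close to each other, bone and connective matrix at 0.274% ± 0.0182 and cartilage at 0.229% ± 0.0118. col1a1a, a chain of type I collagen, had 404, 521 and 444 TPM, and col2a1 (ENSDARG00000069093), the main collagen of cartilage, had 517, 573 and 526 TPM. The matrix proteins matn1 and sparc had 306 ± 14.3 and 416 ± 9.50 TPM.

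Eye and brain genes were divided over 4 lists, of which lens held the most. The lens list held 1.27%, 1.85% and 1.14% of TPM in wt11, wt12 and wt13, with wt12 above the others. Its first members were gamma crystallins, the tightly packed proteins of the lens. The gamma M copies led with crygm2d8 at 1554, 2030 and 1450 TPM and crygm2d13 at 1391, 1901 and 1339 TPM, and crygn (ENSDARG00000030411), a gamma N copy, followed at 1267 ± 243 TPM. The whole class of 60 crystallin genes held 2.26% ± 0.510. The photoreceptor list held 0.477%, 0.732% and 0.873%, lowest in wt11 and highest in wt13. It was led by pde6ha, the inhibitory subunit of cone phosphodiesterase, at 1210, 1434 and 1980 TPM. The opsins, which absorb light, were led by the short wavelength opsin opn1sw at 1683, 2152 and 2342 TPM, and this gene is not a member of the photoreceptor list, whose symbol opn1sw1 was unmatched. The rod opsin rho (ENSDARG00000002193) had 547, 1351 and 1530 TPM. The blue cone opsin opn1sw2 had 324 ± 75.1, the green opn1mw1 283 ± 58.0 and the red opn1lw2 267 ± 40.2 TPM. wt11 was lowest for all 5 of these opsins. In the whole opsin class it was lowest for 24 of 29 genes at 1 TPM or more, beside 62.0% of all genes. The neuron list held 0.353%, 0.430% and 0.508%. Its leaders were the microtubule regulator stmn1 (ENSDARG00000033655) at 631 ± 17.0, the synuclein sncb at 589 ± 83.1 and the synaptic protein snap25 (ENSDARG00000020609) at 300 ± 28.9 TPM. The glia and myelin list held 0.237% ± 0.0155, with the myelin protein mbpa at 114 ± 4.22 TPM.

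Blood, immune, vascular, kidney and pigment lists each held a mean of 0.122% of TPM or less. Erythroid genes held 0.131%, 0.119% and 0.116%. The leading globins were hbe1 (ENSDARG00000113599) with 390, 369 and 278 TPM and hbae3, an embryonic alpha globin, with 277, 234 and 218 TPM. The symbol hbe1 covers 7 copies, and the recorded command has no option to count reads that map to several places. The globin values and the erythroid share are uncertain to that extent. The adult alpha globins hbaa1 and hbaa2 were below 1 TPM. The leukocyte list held 0.119% ± 0.00685, but 83.5% of that came from apoeb, a lipoprotein gene that is also used outside macrophages. The next member, the myeloid factor cebpa, had 20.8 ± 1.57 TPM, and the macrophage pore protein mpeg1 (ENSDARG00000043093) had 26.5, 12.5 and 19.9 TPM. The endothelium list held 0.0304% ± 0.00130, the kidney list 0.0330% ± 0.00532 and the pigment cell list 0.0373% ± 0.00419. The endothelium list was led by the water channel aqp1 (ENSDARG00000023713) at 84.1 ± 7.97 TPM, which made 27.7% of it and is also used outside vessels, followed by the vessel gene plvapb at 34.4 ± 3.83 TPM. The kidney cadherin cdh17 led its list at 105 ± 13.6 and the purine synthesis gene paics its own at 77.4 ± 15.2 TPM. The proliferation list held 0.129% ± 0.00389, of which stmn1 (ENSDARG00000033655), also the leader of the neuron list, made 48.8%. pcna, the sliding clamp of DNA replication, had 156, 148 and 157 TPM.

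Yolk and egg genes were low. Of 21 listed genes, 2 reached 1 TPM, namely ddx4 at 2.39 ± 0.585 TPM and piwil1 at 1.59 ± 0.215 TPM, which act in the germ line. The list held 0.000790% of TPM. The hatching enzymes he1.1 and hce2l1 had means of 0.140 and 0.269 TPM. Over all lists, 12 of 749 genes had no count in any wild type library, among them he1.2, umod, bglap and opn1mw4. A count of 0 allows up to 3 counts in a library, which is at most 0.356 TPM for he1.2, 0.277 for umod, 0.937 for bglap and 0.253 for opn1mw4. These limits cover counting error only. The 24 lists together held 26.4% ± 1.45 of TPM, and 671 of their 749 genes reached 1 TPM, beside 64.4% of all genes.

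By gene class, the cytosolic ribosomal proteins and the mitochondrial chromosome held the most. The mitochondrial share was larger in the mean TPM, but in wt11 the ribosomal proteins were ahead, and in CPM they held 6.13% against 6.09%. The 86 genes of ribosomal proteins held 11.7%, 9.87% and 8.94% of TPM in wt11, wt12 and wt13. Of the 85 at 1 TPM or more, 80 were highest in wt11, beside 16.8% of all genes. In wt13, 80 were lowest, beside 14.1% of all genes. rplp0, part of the ribosomal stalk, had 4613, 4577 and 4146 TPM. rpl6 had 4320, 3514 and 3482 TPM, and rps2 had 3098, 3017 and 2944 TPM, so the gap between libraries differed from protein to protein. Translation factors held 1.87% ± 0.0606, with wt12 at 1.94% slightly above the others. eef1a1l1, which delivers aminoacyl tRNA to the ribosome, had 3811 ± 145 TPM. Actins held 3.01% ± 0.183, parvalbumins 2.99% ± 0.273, myosin chains 2.57% ± 0.0543 and keratins 2.21% ± 0.111. The 436 solute carriers held 1.43% ± 0.0443, of which slc25a5 alone made 42.6%. Of the 57 collagens, which held 0.352% ± 0.0338, 54 reached 1 TPM. wt11 was lowest for 48 of these, beside 62.0% of all genes, but collagen transcripts are long, and their median log2 ratio of wt11 to the other libraries went from -0.35 to 0.06 once the median of genes of like length was subtracted. Genes without a symbol numbered 3319 and held 1.66% ± 0.0848.

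Duplicated genes were described in 99 sets of copies, of which 95 summed to at least 10 TPM. A leading copy is the copy with the highest mean TPM, and its lead is the percentage of the set's TPM that it holds, averaged over the 3 libraries. The median lead was 81.3%, and the lead was above 90% in 30 sets, above 99% in 10 and under 60% in 24. The lead varied little between libraries, with a median SD of 1.03 percentage points, and the same copy led in every library in all but 4 sets. The recorded command has no option to count reads that map to several places, so copies of near-identical sequence are uncertain.

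In 10 sets a single copy supplied almost everything. The red cone opsin was opn1lw2 at 267 TPM against opn1lw1 at 0.228 TPM, a lead of 99.9% ± 0.0339. Among fatty acid binding proteins, known from gut and liver, fabp1 (ENSDARG00000059227) had 733 TPM against 0.723 TPM for fabp1b.2, and fabp10a had 1669 TPM against fabp10b at 3.81 TPM. ins held 99.8% of insulin transcripts over insb. hmgb2b, a chromatin protein, held 99.9% at 312 TPM against 0.387 TPM for hmgb2. Others in this group were the lens crystallin cryba1b, the chaperone hspa8 (ENSDARG00000068992, 1979 TPM against 4.22 TPM for its copy), pde6ha, the elongation factor eef2b at 2790 TPM and the adipose fatty acid binding protein fabp4a. The cryba1b set does not count the related crystallin gene cryba1l1, which had 591 TPM against 495 TPM for cryba1b. The green cone opsins were less one-sided, opn1mw1 holding 93.3% ± 0.898 over opn1mw2 at 20.2 TPM.

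At the other end, the leading copy held under 60% of its set. 6 calmodulin copies, which encode the same calcium sensor, were led by calm3b at 475 TPM with 26.5% ± 2.00 of the set. 6 sodium pump alpha 1 copies were led by atp1a1a.4 with 40.5% ± 0.431, and the histone H3.3 set by h3f3d with 48.2% ± 1.31. ckma held 52.5% ± 0.714 over ckmb, and the peripherin copies prph2 of the photoreceptor disc, at 93.3 and 88.5 TPM, gave 51.2% ± 0.486. gapdhs and gapdh, enzymes of glycolysis, had 1107 and 1051 TPM, with gapdhs ahead in every library. For the trypsin-like pair prss59.2 and prss59.1, the former held 56.3%, 56.5% and 56.4% in wt11, wt12 and wt13.

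The leading copy changed between libraries in 4 sets. For glutamine synthetase, glul (ENSDARG00000099776) held 46.9% in wt11, 53.9% in wt12 and 56.8% in wt13. For the glucose transporter slc2a1 (ENSDARG00000001437) the shares were 45.5%, 60.5% and 59.3%, an SD of 8.32 points, the widest among the 95 sets. nefma, a neurofilament subunit, held 49.7%, 53.5% and 52.8%, and the carboxyl ester lipase copy cel (ENSDARG00000017490) held 50.7%, 53.4% and 49.5%. wt11 was the library with another leader in the first 3 of these, and wt13 in the last. In 7 sets CPM, without division by length, named another leader. Of these, apoa1a led its set with 55.7% ± 0.963 in TPM and held 22.6% in CPM, and gapdhs held 23.5% in CPM.

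**Figure D3:**
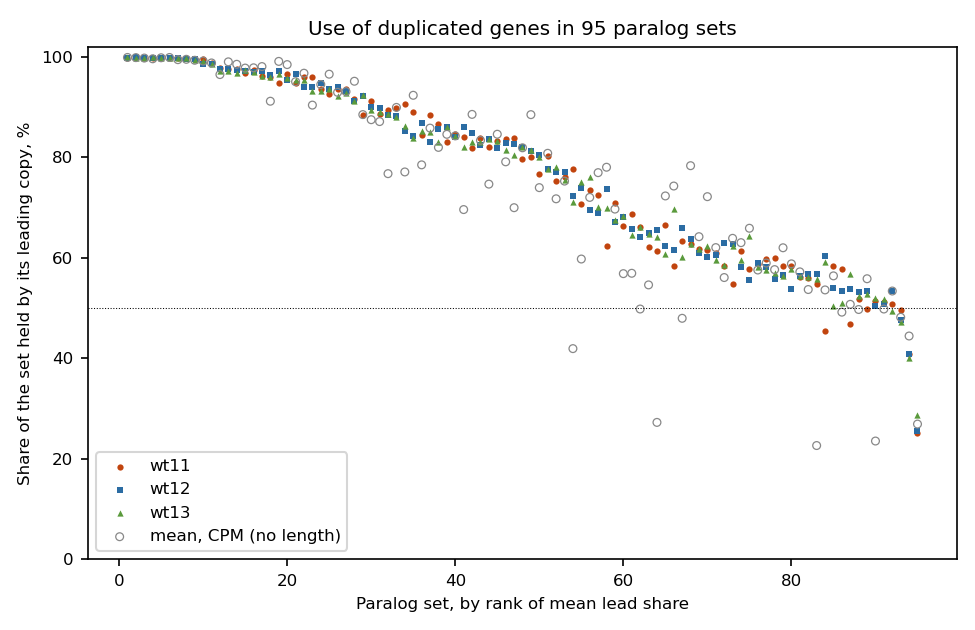
Percentage of a paralog set's TPM held by its leading copy, for 95 sets ordered by their mean, with filled markers for the 3 wild type libraries and open circles for the mean in CPM, without length. The filled markers lie close together, with a median SD of 1.03 points, while some open circles lie below 50%, among them apolipoprotein A-I at 22.6% and glyceraldehyde phosphate dehydrogenase at 23.5%.

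The 3 libraries were alike in rank but not equally close. Across the 20957 genes at 1 TPM or more, Pearson's r of log2(TPM + 1) was 0.975 between wt11 and wt12, 0.967 between wt11 and wt13 and 0.982 between wt12 and wt13, as descriptions across genes, which are not independent. A difference of at least 2-fold was seen for 1176, 2171 and 738 genes in these pairs. The common biological coefficient of variation in edgeR was 0.169 over the 3 libraries, 0.114 without wt11, 0.207 without wt12 and 0.169 without wt13. The median coefficient of variation per gene was 21.4% at 1 to 10 TPM and 10.6% at 1000 TPM or more, where counting error alone gives 10.8% and 0.677%.

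Set against the mean of the other libraries, wt11 had 135 genes at least 2-fold higher, 0.644% of those at 1 TPM or more, and 1291 at least 2-fold lower, 6.16%. This is 1 library against 2, with no test. The ratio is of TPM + 0.1. Its median over all genes was -0.24 on the log2 scale, and wt11 was the lowest of the 3 libraries for 62.0% of genes. With TMM scaling the median was -0.11 and the counts were 185 higher and 843 lower, so values are read against that shift. A pseudocount of 1 TPM gave 92 higher and 582 lower. Against wt12 alone 263 were higher and 856 lower, and against wt13 alone 212 and 1973. wt13 was the highest of the 3 for 62.4% of genes, with a median of 0.22. wt12 had a median of -0.01. By the same rule wt13 had 576 genes at least 2-fold higher and 204 lower, and wt12 had 198 and 314.

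The shift differed with transcript length. The median log2 ratio of wt11 was -0.07 for 1970 genes with 500 to 1000 bases of merged exon, -0.10 for 6159 genes of 1000 to 2000 bases, -0.24 for 7235 of 2000 to 4000, -0.39 for 4049 of 4000 to 8000 and -0.60 for 753 genes of 8000 bases or more. wt11 was the lowest library for 40.4% of the first and 95.8% of the last of these groups. In wt13 the median was 0.07 in the first and 0.44 in the last of the same groups. The 791 genes under 500 bases broke the order, with -0.34 in wt11. The part of length in the results below was not tested beyond the values relative to genes of like length.

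**Figure D4:**
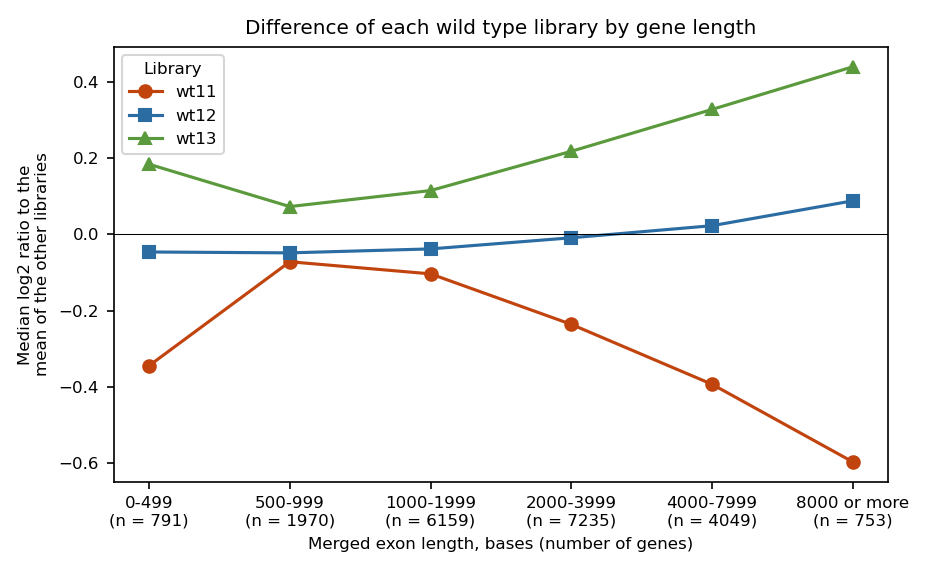
Median log2 ratio of each wild type library to the mean of the other libraries (y axis, TPM + 0.1) for genes grouped by merged exon length in bases (x axis, with the number of genes). From 500 bases upward wt11 goes from -0.07 to -0.60 and wt13 from 0.07 to 0.44, while wt12 stays between -0.05 and 0.09.

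Photoreceptor genes stood lowest in wt11 beyond that shift. Of the 48 members at 1 TPM or more, out of 51, wt11 was lowest for 45, beside 62.0% of all genes, and at least 2-fold lower for 17, beside 6.16%. Relative to genes of like length, 15 were 2-fold lower, beside 708 of all 20957 genes. Their median log2 ratio was -0.80 in TPM, -0.66 with TMM scaling, and -0.62 once the median of all genes of like length was subtracted. wt13 was highest for 40 of the 48, beside 62.4% of all genes. Its median was 0.58, or 0.38 relative to genes of like length. rho was at 547 TPM in wt11 against 1351 and 1530, and the catalytic subunit of cone phosphodiesterase, pde6c, was at 100 TPM against 237 and 277. The opsin kinase grk7 (ENSDARG00000020602) had 55.5, 137 and 145 TPM. rgs9bp, which anchors the protein that switches off transducin and is not a list member, had 55.4, 111 and 146 TPM. crx (ENSDARG00000011989), a transcription factor of photoreceptors, had 12.02, 30.95 and 42.29 TPM. Outside the list, the lowest wt11 ratios included slc24a2, a cone sodium and calcium exchanger, with 3.754, 18.98 and 26.45 TPM, and the complexins cplx4 and cplx3, which act at ribbon synapses of the retina, with 11.03, 35.14 and 56.50 TPM and 13.8, 31.6 and 66.7 TPM. In each of these genes wt11 was below both other libraries. The genes were named for a low wt11 ratio, for high variability or after their values were seen. That agreement is therefore no separate support.

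Neuronal genes lay in the same direction, closer to genes of like length. Of 44 members, wt11 was lowest for 38, beside 62.0% of all genes, and at least 2-fold lower for 6, beside 6.16%. Relative to genes of like length, 1 was 2-fold lower, beside 708 of all 20957 genes. The median log2 ratio was -0.53 in TPM and -0.39 with TMM scaling, and -0.24 relative to genes of like length. The synaptic vesicle protein vamp2 had 105, 169 and 240 TPM, and atp1a3a, the neuronal sodium pump, had 121, 175 and 226 TPM. snap25 (ENSDARG00000020609) differed less, with 279, 288 and 333 TPM. In the neuron list wt13 was highest for 42 of the 44 members, beside 62.4% of all genes. The intestine list also had a negative median, -0.30, close to that of all genes, and -0.05 relative to genes of like length. Kidney, pax and cadherin genes had medians of -0.47, -0.51 and -0.46. Relative to genes of like length these were -0.08, -0.15 and -0.11.

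Genes of ribosomal proteins, the respiratory chain and the exocrine pancreas were relatively high in wt11. Ribosomal proteins had a median log2 ratio of 0.33 in TPM, 0.46 with TMM scaling and 0.46 relative to genes of like length. The nuclear respiratory chain had 0.20 in TPM, with 78 of 106 members highest in wt11, beside 16.8% of all genes, and the exocrine pancreas list had 0.24, or 0.31 relative to length. None of the members of the ribosomal protein and exocrine lists was 2-fold apart in wt11 in TPM. In the nuclear respiratory chain 1 of 106 members was at least 2-fold lower, beside 6.16% of all genes, and none was 2-fold higher. Relative to genes of like length, 2 ribosomal protein genes were 2-fold higher, beside 215 of all 20957 genes. Fast muscle had 0.08 in TPM and 0.28 relative to length, near the exocrine pancreas. Other lists were similarly high relative to length, among them cathepsins at 0.39, proteasome at 0.31, leukocyte at 0.30 and keratins at 0.30. The liver list went from -0.06 in TPM to 0.08 with TMM scaling, so its direction flips with the scaling.

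**Figure D5:**
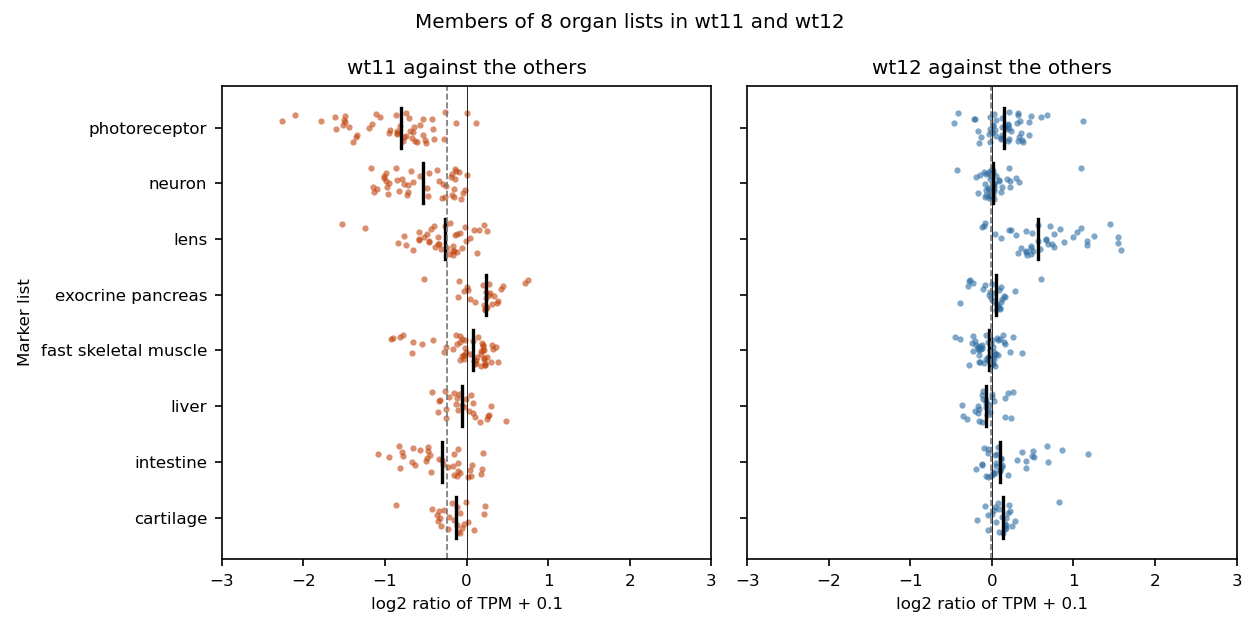
Log2 ratio of TPM + 0.1 to the mean of the other libraries for the members at 1 TPM or more of 8 organ lists (rows), in wt11 (left) and wt12 (right). Each point is a gene, the black bar is the list median and the dashed line is the median of all genes. Photoreceptor (median -0.80) and neuron (-0.53) lie left in wt11, and lens lies right in wt12 (median 0.57).

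A small group of genes was far higher in wt11 than in the other libraries. rn7sk, the 7SK RNA that restrains transcription elongation, had 64.4, 1.65 and 1.08 TPM, and rn7sl1, the RNA of the signal recognition particle, had 61.3, 4.28 and 1.17 TPM. Both are RNA polymerase III transcripts without a poly(A) tail. The 5.8S rRNA gene copy 5_8s_rrna had 32.4, 12.4 and 12.1 TPM, whereas several 5s_rrna copies were among the lowest in wt11. These rest on few counts, 50, 18 and 16 for 5_8s_rrna and 1, 19 and 19 for the lowest 5s_rrna copy. The symbol 5s_rrna covers 1947 copies, so single copies are uncertain. The uncharacterized gene zgc:158463 had 313, 18.6 and 8.24 TPM. The ferritin-like genes fthl29, fthl28 and fthl31, of the family that stores iron, had 74.8, 9.66 and 7.59 TPM, 110.1, 18.99 and 15.94 TPM, and 78.4, 22.6 and 27.9 TPM. Of 7 ferritin-like genes, a class added after these values were seen, 4 were at least 2-fold higher in wt11, beside 0.644% of all genes. That count is therefore no separate support. The main heavy chain fth1a was not among the 4, with 1543, 1389 and 1250 TPM. trpv6, the epithelial calcium channel of ionocytes, had 193, 49.8 and 41.7 TPM. s100a11, a calcium binding protein, had 268, 91.7 and 92.3 TPM, and prdx1, a peroxidase that removes hydrogen peroxide, had 70.18, 26.34 and 25.97 TPM. In each of these genes except the 5S copies wt12 and wt13 were both below wt11. All but the 5S copies and fth1a were named because their wt11 ratios were the highest, so this is no separate support.

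wt12 stood apart through the lens. Of the 41 lens members at 1 TPM or more, out of 50, wt12 was highest for 37, beside 20.8% of all genes, and at least 2-fold higher for 9, beside 0.945% of all genes for that library. The median log2 ratio of wt12 was 0.57 in TPM, 0.57 with TMM scaling and 0.61 relative to genes of like length. wt13 was lowest for 30 of the 41 members, beside 14.1% of all genes. Its median log2 ratio was -0.39 in TPM and -0.49 relative to genes of like length. crybb1, a beta crystallin, had 552, 1379 and 367 TPM, its relative crybb1l1 had 259, 706 and 226 TPM and cryba1b had 342, 784 and 358 TPM. bfsp1, a filament protein of the lens fiber cell, had 33.3, 70.2 and 14.7 TPM. The most abundant gamma M crystallins differed less than crybb1, as crygm2d8 with 1554, 2030 and 1450 TPM shows. Outside the lens, wt12 was also high for fkbp5 with 13.4, 51.5 and 10.9 TPM and klf9 with 32.9, 83.2 and 32.1 TPM, which encode a chaperone and a transcription factor that respond to glucocorticoids, and for the acute phase gene crp5 with 65.4, 224 and 68.3 TPM. wt12 was low for cyp24a1, which inactivates vitamin D, with 139, 52.6 and 131 TPM, and for hamp, the iron hormone hepcidin, with 63.8, 10.9 and 47.0 TPM.

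Some abundant genes barely differed. Among 1022 genes at 100 TPM or more, the SD of log2(TPM + 1) had a median of 0.14 and passed 0.5 in 32. The translocon subunit ssr4 had 126, 125 and 125 TPM, the complex III subunit uqcrc1 had 240, 238 and 238 TPM, and the ribosomal protein rps27.1 had 1876, 1878 and 1858 TPM. tnnc1 had 191, 192 and 188 TPM. These genes were level in TPM, and since TMM scaling raises wt11 against the others they are not level on that scale.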

How the data were processed

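RNA of wild type zebrafish at 5 days post fertilization was measured in 3 libraries. The submitters' processing notes name HISAT2 2.2.1 beside fastp 0.20.0, featureCounts 2.0.1 and Salmon 0.12, the authors' own DESeq2 1.40.2, and the build GRCz11. Gene values were deposited as raw counts, which per the file headers are read pairs on exons, summed by gene with featureCounts on Ensembl release 105; the command has no strand or multi-mapping option. The authors' table of reads on the 45S ribosomal RNA precursor numbers its libraries 1 to 3 and was not tied to wt11, wt12 and wt13.

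TPM was computed from counts and merged exon lengths with Python 3.11.15, pandas 2.3.3 and numpy 2.4.6. A name table gave symbols to 29201 of the 32520 identifiers, printed in lower case; copies under 1 shared symbol carry their identifier. Of 708 listed symbols, 37 were unmatched and 176 were matched through a shared name or alias, set after values were seen. The members, lists and classes were chosen with earlier results of these data known. The rule for named genes took the 30 highest, the leaders of lists and classes, the extremes of paralog lead, the 10 highest and 10 lowest ratios of wt11, and the 10 most and least variable genes; others, such as crx and those singled out in wt12, were chosen after their values were seen. Classes for ferritin-like genes, small nuclear RNA and chemosensory receptors, the length groups and pairs defined by name were also added after seeing the data.

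No test between groups was possible with 1 group, so no p-value is given. TMM and RLE factors and the dispersion came from edgeR 4.0.16 and DESeq2 1.42.0 in R 4.3.3. Scripts were tested on simulated data. Alternatives were CPM, a total without mitochondrial genes, median in place of mean, TMM, RLE, other thresholds and pseudocounts, and each library left out.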

Additional observations from a re-analysis of the deposited data

Results flagged for a closer look

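The deposited table of the 45S ribosomal RNA precursor, which no comparison above uses, held 653430 reads in wild type replicate 1, 63119 in replicate 2 and 23911 in replicate 3. It is listed here because it is a signal outside the gene counts, above the limit that a count of 0 allows. Of these reads, 218917, 11872 and 5214 lay on 18S and 433955, 51157 and 18619 on 28S, while the external and internal spacers had at most 455 each. Which of wt11, wt12 and wt13 each numbered replicate is was not given.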

How the results depend on the processing

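No paired analysis was possible because the wild type libraries form 1 group and their columns carry no replicate number. In CPM, without length, the genes holding 50% of the total went from 178 to 439, the organ lists together from 26.4% to 23.8%, the main gene classes together from 47.7% to 37.8%, the median paralog lead from 81.3% to 77.4%, and the genes at least 2-fold apart in wt11 from 1426 to 786. Single organ lists moved in both directions in CPM. Exocrine pancreas went from 6.70% to 4.04% and lens from 1.42% to 0.893%. Bone and connective matrix went from 0.274% to 0.705% and cartilage from 0.229% to 0.515%. Intestine, at 1.19% in CPM, passed liver at 0.979% and lens. Without mitochondrial genes in the total, the organ lists held 30.03% and the classes 40.4%. The count of 1426 was 3631 with no filter beyond 1 count, 262 at a mean of at least 10 TPM, 674 with a pseudocount of 1 and, in an alternative chosen after seeing the data, 923 after subtracting the median of genes of like length. It was 1028 with TMM and 1032 with RLE scaling. With wt13 left out it was 1119 and with wt12 left out 2185, so the range was 1119 to 2185. The lowest correlation between libraries was 0.967 and fell to 0.948 with a pseudocount of 0.1. With 1 library left out at a time, the genes at 1 TPM or more ran from 20726 to 21115, the genes holding 50% of TPM from 166 to 192, the organ lists from 25.76% to 27.18% and the median lead from 80.9% to 81.6%. Depth limits genes under 10 TPM, where counting error alone gives a median coefficient of variation of 10.8%. With 3 libraries, no separation of 1 library from the others was tested.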

Other observations

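Chromosome 4, whose long arm is known in zebrafish for repeats and clusters of zinc finger and immune receptor genes, was the least used nuclear chromosome by gene number. Of its 2380 genes, 842 reached 1 TPM, or 35.4%, against 61.4% to 73.4% on the other numbered chromosomes. The part of these gene families in that share was not tested. Over all chromosomes, 249 of 378 genes named as zinc fingers reached 1 TPM, beside 64.4% of all genes. The 64.4% includes 1953 entries of 5S and 5.8S ribosomal RNA, of which 110 reached 1 TPM. The part of such entries in the share of chromosome 4 was not tested. The leading gene of chromosome 4 was opn1sw, which held 10.6% of the chromosome's TPM. Chemosensory receptors were low. Of 289 genes of these families, 89 had no count in any library and 7 reached 1 TPM, beside 64.4% of all genes, among them the bitter receptor tas2r200.1 at 2.39 TPM and the odorant receptor or42a4 at 1.62 TPM. By contrast 43 of 48 hox genes, which pattern the body axis, reached 1 TPM, led by hoxb5 (ENSDARG00000013057) at 27.69, 25.80 and 27.51 TPM.

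Gene pairs defined only by their names, a set added after seeing the data, had a lower median lead than the sets described above. Some of those sets hold more than a pair of copies, so the leads are not like for like. The median lead was 69.7% over 1682 pairs with at least 10 TPM together. Of these pairs, 450 had a lead under 60% and 229 a lead of 90% or more. Among the 95 sets the median was 81.3%, with 24 under 60% and 30 above 90%. Another copy led in at least 1 library in 149 pairs, and another copy led in CPM in 205.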
